A study of Mus musculus with 6 samples.

Results

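Mouse HAT1 is the histone acetyltransferase that acetylates newly made histone H4 before it is assembled into chromatin behind the replication fork. Accessibility was measured by ATAC-Seq, in which a transposase cuts open chromatin and tags the ends for sequencing, in untreated primary mouse embryonic fibroblasts (pMEFs) of the C57bl6 background. The 3 HAT1 WT (HAT1+/+) lines and the 3 HAT1 KO (HAT1-/-) lines were isolated from mid-gestation embryos of each genotype, and the deletion is that of the whole embryo. For each accessible site the authors give 1 level per genotype, the log2 of the mean normalized reads, so neither a spread between lines nor a test between genotypes is available here, and the depth of each line is unknown. All coordinates are in mm10.

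Sites that kept their level inside stretches where accessibility was lower in HAT1-/- cells are described here. The difference d is the HAT1-/- level minus the HAT1+/+ level in log2 units, and m is the mean of d over 25 consecutive sites centred on each site of chromosomes 1 to 19. A site was taken as retained where m was below -0.58, d was above -0.2 and the mean level of all lines was 3.5 or more, which is 11.3 reads. The 264 retained sites, of 229903 in all, were thus chosen by the genotype levels themselves. Sites under the same m and level with d below -0.8 are called lost and number 1679, and the 580 sites with d from -0.8 to -0.2 are called between. Retained sites were 10.5% of the 2523 sufficiently read sites in lowered neighbourhoods, and lost sites 66.5%. Among all 137992 autosomal sites of that level, 62.2% had d above -0.2 and 6.02% had d below -0.8. Since d chose the sets, levels and d are given as a description and were not tested.

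The description of these sites as lying within domains of loss held for part of them. The 12 sites before and the 12 sites after both averaged below -0.58 at 99 retained sites (37.5%), against 1098 lost sites (65.4%). The other 165 retained sites had a lowered stretch on 1 side only, and 114 of them (69.1%) lay within 3 sites of an end of the run described next. In runs of consecutive lowered windows, 128 of the 264 retained sites (48.5%) were within 3 sites of the end of their run, against 253 lost sites (15.1%). Results are therefore also given for the 99 sites lowered on both sides, a set added after the values were seen.

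Accessible sites differ in what holds them open. Many promoters of widely used genes are rich in CpG and stay free of nucleosomes in most cell types. CTCF is a zinc finger protein that binds a long motif, positions the nucleosomes around it and anchors chromatin loops. AP-1 (Fos and Jun dimers) and TEAD proteins bind distal enhancers that are prominent in fibroblasts. The question asked of the retained sites was which of these classes they fall in, as far as sequence and annotation show.

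The sequences with a CTCF match are shown first because this motif was among the features whose share differed between retained and lost sites. The 12-letter core of the CTCF consensus was searched on both strands in the central 200 bp of each site. It was present in 19 retained sites, and at 16 of them the middle of the match lay within 50 bp of the site's centre. The 7 matches below belong to the retained sites of highest level with 40 bases printed, on the strand of the match, with the core in capitals.
chr8:63877620-63877659, minus strand: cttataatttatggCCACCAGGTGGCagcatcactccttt
chr17:52560112-52560151, plus strand: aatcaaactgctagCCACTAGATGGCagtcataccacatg
chr1:144006781-144006820, minus strand, near Rgs2: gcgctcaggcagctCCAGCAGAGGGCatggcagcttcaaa
chr9:81627093-81627132, minus strand: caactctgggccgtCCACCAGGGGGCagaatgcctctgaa
chr6:45026458-45026497, minus strand: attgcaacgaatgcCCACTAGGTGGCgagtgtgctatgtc
chr8:74935499-74935538, minus strand: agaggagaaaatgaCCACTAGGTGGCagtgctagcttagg
chr2:101472965-101473004, minus strand: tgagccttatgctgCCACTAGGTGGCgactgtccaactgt

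The central 120 bases of retained sites without a CTCF match show a mixed group, and they are set beside lost sites for contrast. Capitals mark AP-1 (TGANTCA), TEAD (CATTCC) and RUNX (TGTGGT) matches on either strand, and all sequences are from the plus strand. The lost examples, 2 of the strongest outside promoters, were chosen after their values were seen.
chr1:100180196-100180315, retained, gene body of Cntnap5b: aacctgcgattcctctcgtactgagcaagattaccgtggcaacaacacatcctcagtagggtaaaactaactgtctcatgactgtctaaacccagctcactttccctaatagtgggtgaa
chr12:90166317-90166436, retained, in a gene body near Nrxn3: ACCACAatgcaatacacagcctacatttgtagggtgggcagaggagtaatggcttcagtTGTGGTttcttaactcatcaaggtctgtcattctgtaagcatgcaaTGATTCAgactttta
chr17:93380147-93380266, retained, between genes: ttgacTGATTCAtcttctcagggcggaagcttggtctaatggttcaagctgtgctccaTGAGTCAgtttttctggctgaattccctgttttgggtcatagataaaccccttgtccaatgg
chr15:71703083-71703202, lost, in Fam135b: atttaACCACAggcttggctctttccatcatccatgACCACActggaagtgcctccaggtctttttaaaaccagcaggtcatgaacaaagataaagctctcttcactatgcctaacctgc
chr2:162282876-162282995, lost, in a gene body near Ptprt: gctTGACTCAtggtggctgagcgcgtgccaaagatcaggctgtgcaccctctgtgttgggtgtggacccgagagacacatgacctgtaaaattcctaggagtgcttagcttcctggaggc

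Retained sites had a median level of 4.14 in HAT1+/+ and 4.27 in HAT1-/- cells, which is 17.7 and 19.3 normalized reads. Their d ran from -0.19 to 1.11 with a median of 0.03. The HAT1-/- level was the higher at 143 of them, and at 13 it was higher by more than 0.58. Lost sites had medians of 4.87 and 3.33, or 29.2 and 10.1 reads, and a median d of -1.45, so the median lost site kept 36.6% of its reads. In HAT1-/- cells the retained sites stood above the lost sites, whereas in HAT1+/+ cells the lost sites were the higher. The limits on d and the shared floor on the mean of both genotypes favour this order, so it is no separate result. The lowest HAT1+/+ level was 3.88 at lost and 3.08 at retained sites, with median levels over all lines of 4.30 and 4.19. The mean level of all lines was below 4 at 103 retained sites (39.0%) and at 580 lost sites (34.5%), where a few reads move d. Retained sites were 304 bp wide at the median and lost sites 365 bp.

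**Figure D1:**
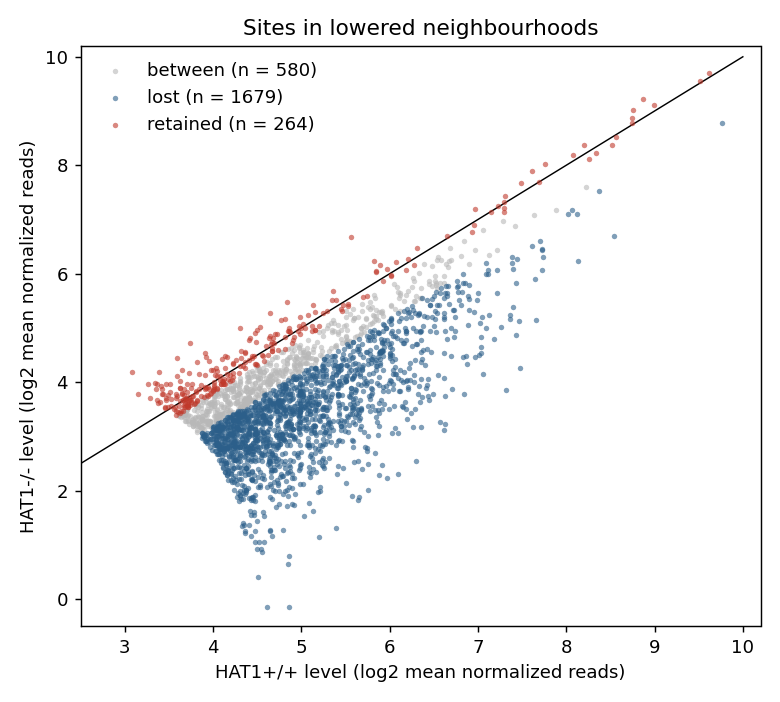
Level of each site in lowered neighbourhoods in HAT1+/+ (x axis) and HAT1-/- (y axis) cells, both as log2 of the mean normalized reads, with the line of equal levels. The 264 retained sites lie near or above the line by definition, and most of the 1679 lost sites lie far below the line.

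The limits cut through a continuous range. The retained site nearest the limit on d had -0.19, and a site just outside it had -0.20. A retained site on chromosome 3 (125675270 to 125675518) had m of -0.5804, and a site on chromosome 4 (72105703 to 72106114) with d of 0.04 had m of -0.58 and was left out. On level, a retained site at 3.5 had a counterpart at 3.48 just outside. The lost site nearest its limit had d of -0.81, next to a site at -0.80 that counts as between.

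Accessibility was lowered least at the sites next to a retained site. The median d was -0.42 at the site before and -0.44 at the site after, against -1.14 on both sides of a lost site. At 5 sites away the medians were -0.93 and -0.71 around retained sites and -1.01 and -1.03 around lost sites. A retained site had another retained site as its neighbour in 76 cases (28.8%) and a site with d below -0.8 in 139 cases (52.7%). For lost sites the figures were 95 (5.66%) and 1452 (86.5%). For the 99 retained sites lowered on both sides they were 20 and 65, and the median d next to them was -0.72 and -0.74. Around these 99 the nearest sites did not stand out, since the median d was also -0.74 at 8 sites before and at 4 sites after. The windows of neighbouring sites overlap, so these values are not independent of the limits on m.

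**Figure D2:**
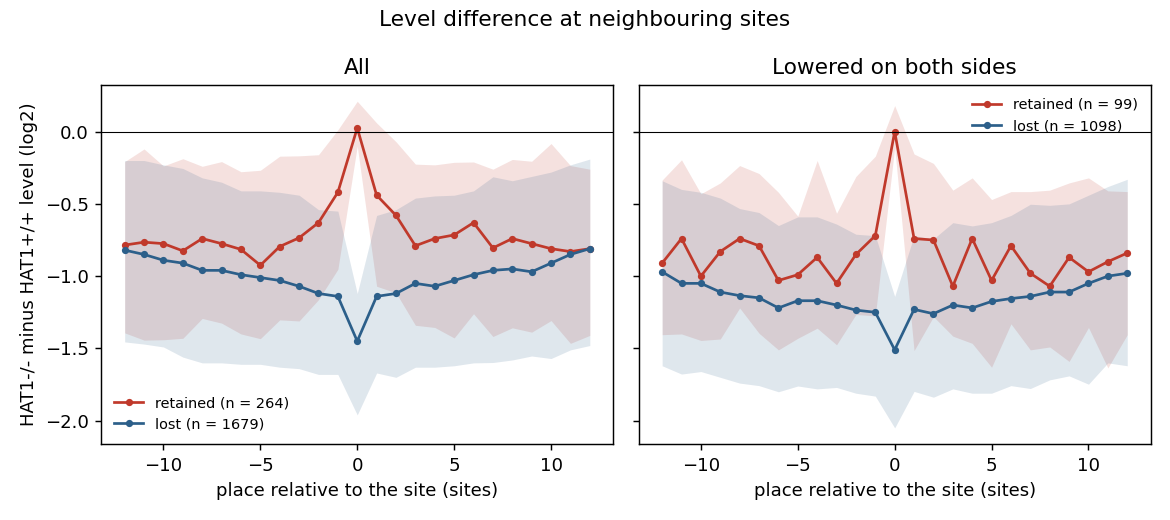
Median d (lines) and the range from the 25th to the 75th percentile (shading) at the sites around retained and lost sites, by place in the order of sites, for all sites of both sets and for those lowered on both sides. The value at place 0 is set by the definition, and the neighbouring sites of retained sites had medians of -0.42 and -0.44.

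Retained sites were spread over many lowered stretches. Consecutive windows with m below -0.58, no more than 1 Mb apart, formed 257 runs, and 132 of them held a retained site. In 66 runs it was a single one, and 108 runs held both a retained and a lost site. Of the 93 runs of at least 1 Mb, 67 held a retained site. Every autosome had retained sites, from 3.17% of the sufficiently read lowered sites on chromosome 19 (2 of 63) to 15.6% on chromosome 8 (17 of 109).

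The run with the most retained sites lay on chromosome 5 from 68033384 to 69784384, with 9 retained and 13 lost sites among 46. Near its end lie Guf1, a GTPase of mitochondrial translation, and Gnpda2, a glucosamine-6-phosphate deaminase. The Guf1 promoter site had levels of 7.61 in HAT1+/+ and 7.89 in HAT1-/- cells, and a smaller site 0.701 kb from the start had 3.74 and 4.72. The Gnpda2 promoter site had 7.69 in both genotypes. In the same run the promoter site of Kctd8 (69341015 to 69341844), which encodes an auxiliary subunit of GABA-B receptors, was lost, with 6.83 and 4.46. Of the 9 retained sites only the larger Guf1 site was lowered on both sides. In contrast, the run on chromosome 6 from 108928894 to 112302275 held 97 sites, 48 of them lost, and no retained site. The longest run on chromosome 1 (106932582 to 118288754) held 51 lost and 7 retained sites, 3 of these lowered on both sides.

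**Figure D3:**
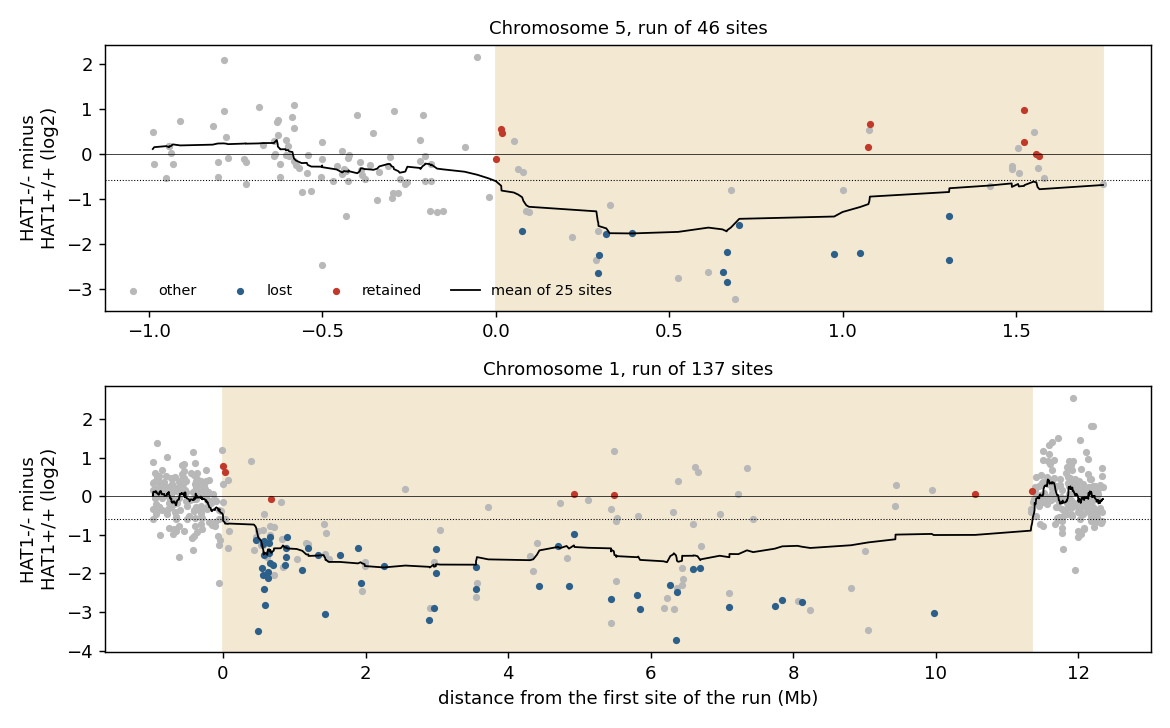
d of every site (points) and the mean of 25 sites (line) along the chromosome 5 run with the most retained sites and the longest chromosome 1 run, against the distance from the first site of the run in Mb. Shading marks the run and the dotted line the cutoff of -0.58, and the 9 retained sites of the upper plot lie at both ends of the run and in its later part rather than in its deepest part.

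Promoters were a larger share of retained than of lost sites. A promoter was a site within 3 kb of a GENCODE transcription start. These were 67 of 264 retained sites (25.4%) and 182 of 1679 lost sites (10.8%), against 28.3% of all autosomal sites. At the matched level of 3.5 or more, 45796 of 137992 autosomal sites were promoters, a larger share than in either set. Compared chromosome by chromosome, where at least 5 sites of each set were present, the share was higher among retained sites on 15 of 17 chromosomes, by 14.1 percentage points ± 14.3 (SD, n = 17 chromosomes; two-sided exact sign test, p = 0.00235, adjusted p = 0.00548 over 7 tests). The chromosomes come from the same 6 lines, so this test measures how evenly a difference holds along the genome and not whether it recurs in other lines. The call was lost in 5 of 17 alternatives and the sign turned in 1, a cutoff of -1 on m with a single chromosome. The losses were with a window of 15 sites (adjusted p = 0.302), at levels from 3.5 to under 5 (adjusted p = 0.0803), with d centred on its autosomal median (adjusted p = 0.0669) and, in both versions, for sites lowered on both sides, where the shares were 20.2% and 10.4% (higher on 5 of 6 chromosomes, adjusted p = 0.306, exact sign test).

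Retained sites also lay nearer to transcription starts than lost sites did. The median distance was 19.03 kb for retained and 43.0 kb for lost sites, and to the start of a protein-coding gene 70.5 kb and 249.2 kb. Both sets lay farther out than autosomal sites of level 3.5 or more, with medians of 7800 bp and, to a protein-coding start, 14498 bp. On the log10 scale of bp, the median was 4.28 and 4.63. The mean difference between chromosome medians was -0.29 ± 0.36 (SD, n = 17 chromosomes), lower on 14 of them (exact sign test, p = 0.0127, adjusted p = 0.0181). The call was lost in 5 of 16 alternatives with the direction kept, among them the sites lowered on both sides (exact sign test, adjusted p = 0.306). The sign turned in 1 more, a cutoff of -1 on m with a single chromosome. Exons were overlapped by 48 retained sites (18.2%) and 113 lost sites (6.73%). Most retained sites were nevertheless distal, since 130 (49.2%) lay outside genes and promoters and 67 (25.4%) in gene bodies.

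The promoters of 30 protein-coding genes held a retained site within 1 kb of a start, at 40 sites. Of these sites 23 were CpG-rich, here an observed to expected CpG ratio above 0.6 and GC above 50% over the whole site. Lost promoter sites of protein-coding genes numbered 81, and 39 of them were CpG-rich, so this trait was not particular to retained promoters. Only 7 of the 40 retained promoter sites were lowered on both sides, against 53 of the 81 lost ones. Among the genes with the highest levels at retained promoter sites were Rnpc3, Fbxo33, Fam174a, Ythdc1, Tmx3, Pcdh9, Rgs2, Smc2 and Trnt1. Rnpc3, a protein of the minor spliceosome, had levels of 8.87 in HAT1+/+ and 9.22 in HAT1-/- cells, or 468 and 596 reads. Fbxo33, an F-box protein of ubiquitin ligases, had 8.99 and 9.11. Fam174a had 8.76 and 9.02. These 3 sites had a lowered stretch on 1 side only.

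Ythdc1 and Smc2 were the exceptions among these genes, with lowered sites on both sides. Ythdc1, the nuclear reader of methylated adenosine in RNA, had levels of 8.74 and 8.87, and Smc2, a core subunit of condensin, had 8.20 and 8.38. The 12 sites before and after Smc2 averaged -1.22 and -0.93, and d was -2.46 at the site just before it and 1.04 at the site just after. Around Ythdc1 the nearest sites were not lowered far, with d of -0.20 and 0.01 before it and -0.23 and 0.10 after it, and its run of 6 sites had a mean d of 0.07 and 0 lost sites, so that the low averages come from sites further away. Tmx3, a disulfide isomerase of the endoplasmic reticulum, had 8.56 and 8.53, and Pcdh9, a protocadherin, had 8.52 and 8.38. The run with Tmx3 held 7 sites, only 1 of them lost, with a median d of -0.03. The run with Pcdh9 held 2 sites, both retained, with a mean d of -0.075. Rgs2, a regulator of G protein signalling, had 8.34 and 8.23. Trnt1, which adds CCA to tRNA ends, had 8.08 and 8.19. Its neighbour Crbn, the substrate receptor of a cullin ubiquitin ligase, had 7.49 and 7.67 at a site lowered on both sides by the 12-site averages. The nearest sites around Crbn were raised, with d of 0.14 and 0.24 before it and 0.27 and 0.14 after it. Its run of 49 sites had 18 lost sites and a mean d of -1.14. At Tle1, a transcriptional corepressor, a promoter site had the largest d of all retained sites, 1.11, with levels of 5.56 and 6.67. This site was not lowered on both sides, and its run of 2 sites had 0 lost sites and a mean d of 0.685.

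The 150 bases before the RefSeq start (GRCm38.p6, the mm10 assembly) are printed for Smc2, whose site was lowered on both sides, and for Rnpc3, whose site was among those with the highest HAT1-/- levels. Capitals mark CCAAT, the letters bound by NF-Y, and GGGCGG, those of SP and KLF factors, on either strand. RefSeq promoters overlapped the site for 7 of the 10 genes with the highest levels. Over all 32851 RefSeq promoters, 24.5% held CCAAT and 28.6% held GGGCGG in this stretch. The Smc2 stretch has a CCAAT, and in that of Rnpc3 neither string is present. The central 200 bp of the Rnpc3 site, which lie outside the printed bases, do hold GGGCGG.
Smc2, chr4:52439071-52439220, plus strand: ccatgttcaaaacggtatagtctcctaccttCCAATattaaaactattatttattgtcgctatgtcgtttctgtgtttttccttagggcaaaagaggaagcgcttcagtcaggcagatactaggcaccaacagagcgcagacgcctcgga
Rnpc3, chr3:113630150-113630299, minus strand: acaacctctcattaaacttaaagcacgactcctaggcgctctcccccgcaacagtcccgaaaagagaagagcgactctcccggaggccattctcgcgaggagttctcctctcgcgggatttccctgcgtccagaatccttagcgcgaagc

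A lost site lay within 1 kb of a start at 65 protein-coding genes. Zfp804a had both a retained and a lost site. The lost promoter with the highest level was that of Dsel, a dermatan sulfate epimerase-like gene, with 9.76 in HAT1+/+ and 8.77 in HAT1-/- cells. Pcdh17, a protocadherin, had 8.37 and 7.52, and Tusc1, a tumour suppressor candidate, had 8.54 and 6.70. Htr1b, a serotonin receptor, had 8.12 and 7.11, and Hs3st1, a heparan sulfate sulfotransferase, had 8.07 and 7.17. These 5 sites were all lowered on both sides. Thus a high level in HAT1+/+ cells was found at promoters of both sets.

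Gene families, matched by the start of the gene symbol, were counted among these promoters without a test. Neuronal adhesion, receptor and channel genes were 14 of 65 genes with a lost promoter site (21.5%), 5 of 42 with a site between and 0 of 30 with a retained one, against 1.08% of the 14849 protein-coding genes with a site of level 3.5 or more within 1 kb of a start. At that background share 0 of 30 would be unremarkable, but the share is not limited to genes of lowered neighbourhoods. Whether 0 of 30 differs from the shares of the other sets was not tested. The match is incomplete, since it leaves out Htr1a, a serotonin receptor with a retained site of 3.94 and 3.75, as well as the lost Htr1b. The 14 include Nlgn1 (neuroligin), Grm3 (a metabotropic glutamate receptor) and Gabra2 (a GABA-A receptor subunit). At Nlgn1 the lost promoter site had 5.73 in HAT1+/+ and 4.56 in HAT1-/- cells, and that of Gabra2 had 5.56 and 3.89. The other 7 symbol families had at most 1 gene each among the 30 with a retained site, and the match misses retained genes of these kinds by name, among them Crbn, Zic1, Zic4, Guf1, Rnpc3 and Ythdc1.

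Retained sites were richer in G and C than lost sites. Autosomal sites of level 3.5 or more averaged 51.4% GC in the central 200 bp, above both sets. The mean GC content of the central 200 bp was 47.9% in retained and 43.8% in lost sites, higher on 17 of 17 chromosomes by 4.30 percentage points ± 2.98 (SD; exact sign test, p = 1.5e-05, the smallest that 17 chromosomes allow, adjusted p = 0.000107). Outside promoters the means were 45.3% and 42.7%, higher on 15 of 16 chromosomes by 2.58 points ± 2.23 (SD; exact sign test, p = 0.000519, adjusted p = 0.00182). That call was lost in 6 of 17 alternatives with the direction kept, among them the sites lowered on both sides (higher on 3 of 5 chromosomes, exact sign test, adjusted p = 1) and level 4.5 or more (adjusted p = 0.802). For all sites lowered on both sides, promoters included, the means were 46.1% and 43.7%, higher on 6 of 6 chromosomes (exact sign test, p = 0.0312, the smallest that 6 chromosomes allow, adjusted p = 0.219), and with at least 3 sites of each set per chromosome on 9 of 13 (adjusted p = 0.467). Retained sites held annotated repeats over 10.0% of the central window and lost sites over 11.3%, a difference of -0.93 points ± 4.33 (SD, n = 17 chromosomes) that was within the spread between chromosomes (exact sign test, p = 0.629).

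The CTCF core was found in 19 of 264 retained sites (7.20%) and in 19 of 1679 lost sites (1.13%). It was in 2.24% of all autosomal sites and 2.88% of those of level 3.5 or more. Sites between, which were lowered less than lost sites, held it in 30 of 580 cases (5.17%). Outside promoters the shares were 6.60% of retained and 5.66% of between sites, so the motif was not particular to retained sites. The share was higher among retained than lost sites on 12 chromosomes, lower on 2 and equal on 3, by 6.21 percentage points ± 7.01 (SD, n = 17; exact sign test, p = 0.0129, adjusted p = 0.0181). This call was lost in 10 of 18 alternatives with the direction kept. The sign turned in 1 more, a cutoff of -1 on m with a single chromosome. Taking sites outside promoters only, the call was lost (exact sign test, adjusted p = 0.129, higher on 10 and lower on 3 of 16 chromosomes), as it was for sites lowered on both sides, where 8 of 99 retained (8.08%) and 8 of 1098 lost sites (0.73%) held it (higher on 4 of 6 chromosomes, exact sign test, adjusted p = 0.802). With the last letter of the core left free, 26 retained (9.85%) and 36 of 1679 lost sites had a match. Read from the motif, 68 sufficiently read sites in lowered neighbourhoods held the core, and 19 of them (27.9%) were retained, against 245 of 2455 without it (9.98%). Their median d was -0.54, against -1.13 without the core, so most of these sites were lowered too.

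Levels at the 19 retained CTCF sites ran from 3.63 over a median of 4.47 to 6.01 in HAT1+/+ cells, and from 3.44 over 4.58 to 6.09 in HAT1-/- cells. None was among the sites of highest level. The match on chromosome 8 near 63877620 belongs to a site with 5.97 and 6.09, and that on chromosome 17 near 52560112 to one with 6.01 and 5.95. The match near Rgs2 lies in a second retained site within 3 kb of a start, with 5.84 and 6.05. Deepest inside a lowered stretch was the site on chromosome 3 from 73046323 to 73046571, 10.5 kb from the start of Slitrk3, with 4.41 in both genotypes and m of -1.31. On chromosome 6 the match near 45026458 belongs to a site lowered on both sides with 4.82 and 4.83, while a promoter site of Cntnap2 (45060096 to 45060455), the gene with the nearest start, was lost, with 4.63 and 2.58.

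The shares of AP-1 and TEAD strings over all retained sites were below those over all lost sites, but for AP-1 the difference did not pass the test. TGANTCA was present in 79 retained sites (29.9%) and 704 lost sites (41.9%), against 22.9% of all autosomal sites and 25.5% of those of level 3.5 or more. Chromosome by chromosome the difference was -6.81 percentage points ± 15.9 (SD, n = 17), lower on 12 and higher on 5 (exact sign test, p = 0.143, adjusted p = 0.167). With sites of level 3 or more it passed (exact sign test, adjusted p = 0.0132, lower on 15 of 18 chromosomes by -9.54 points). CATTCC, the TEAD string, was in 15.5% of retained and 23.6% of lost sites, against 15.5% of all autosomal sites, and was not tested. GGGCGG was in 7.58% and 2.92%, against 8.61%, and TGTGGT, the RUNX string, in 25.4% and 22.6%, against 19.6%. CCAAT was in 27.7% and 25.0%, against 21.7%. At level 3.5 or more the autosomal shares were 16.2% for CATTCC, 11.3% for GGGCGG, 19.4% for TGTGGT and 21.4% for CCAAT.

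**Figure D4:**
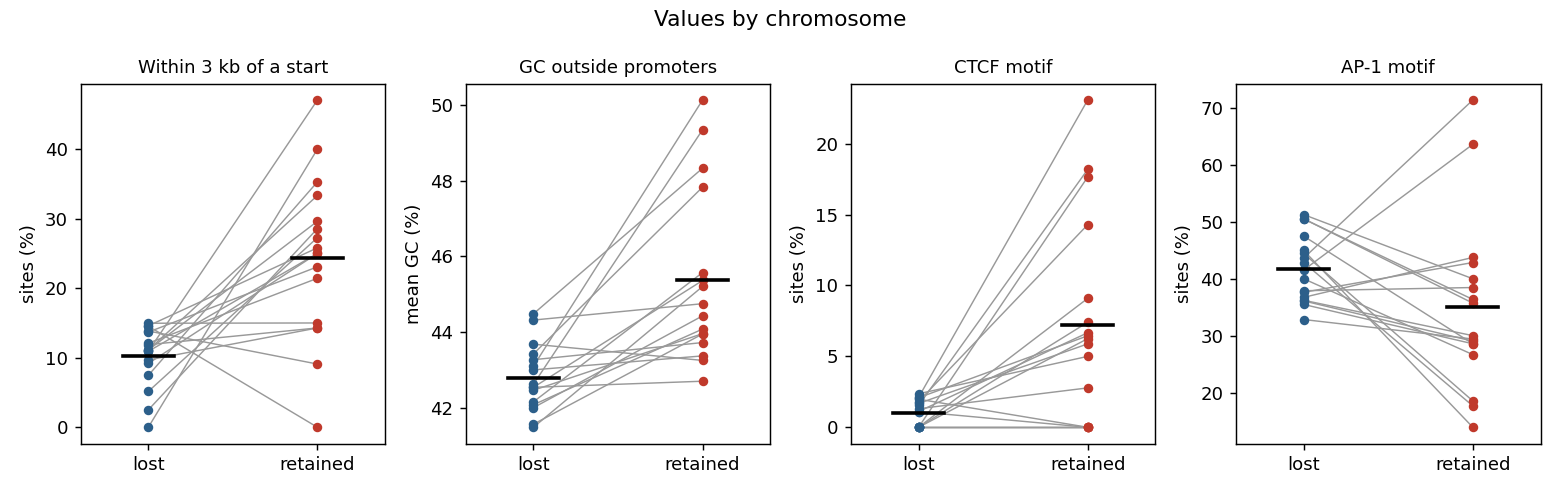
Share of sites within 3 kb of a start, mean GC content outside promoters, and shares of sites with a CTCF and an AP-1 match, for lost and retained sites of each chromosome (points joined by a line) with the mean over chromosomes (bar). Promoter share was higher among retained sites on 15 of 17 chromosomes and GC on 15 of 16, and the AP-1 lines run in both directions.

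Sorted by class, no class was mostly retained. Classes and level bins were chosen after the values were seen and were not tested. Of 105 CpG-rich promoter sites in lowered neighbourhoods, 26 (24.8%) were retained and 44 (41.9%) lost. Other promoter sites were retained in 41 of 247 cases (16.6%) and distal sites with a CTCF match in 13 of 58 (22.4%). Distal sites with neither motif were retained in 119 of 1202 cases (9.90%) and distal sites with an AP-1 but no CTCF match in 65 of 911 (7.14%), and 71.9% of the latter were lost. Among sites lowered on both sides the retained shares were 10.3% for CpG-rich promoters, 11.02% for other promoters, 14.8% for distal CTCF sites (4 of 27), 6.99% for sites with neither motif and 4.21% for AP-1 sites. At other autosomal sites of level 3.5 or more, outside lowered neighbourhoods, the median d of these 5 classes was between -0.11 and -0.03.

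**Figure D5:**
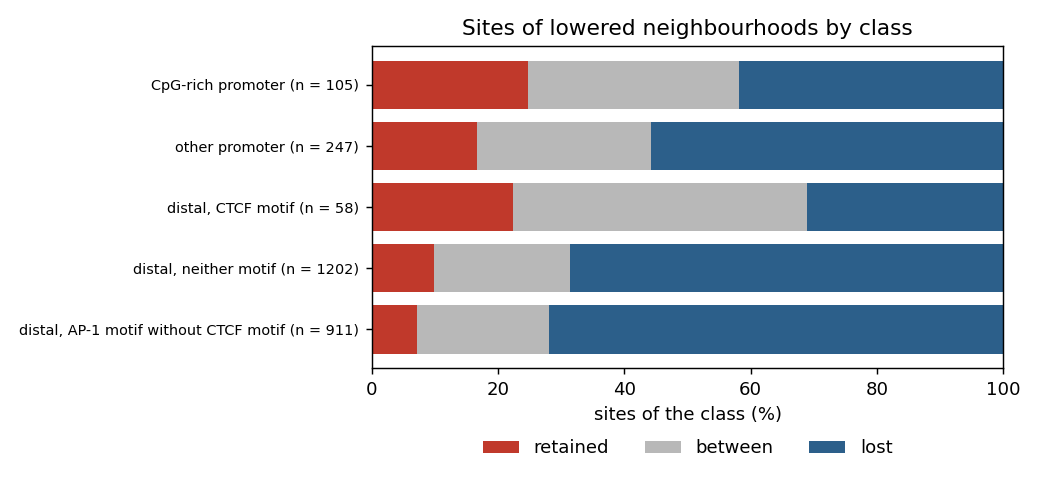
Percent of retained, between and lost sites in 5 classes of the 2523 sufficiently read sites in lowered neighbourhoods. Retained shares ranged from 7.14% of distal AP-1 sites to 24.8% of CpG-rich promoters, and lost sites were the largest part in every class except distal CTCF sites, where 31.0% were lost.

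By level, of the 43 sites with a mean level of 7 or more in lowered neighbourhoods, 24 (55.8%) were retained, and 20 of these lay within 3 kb of a start. Of the 14 lost sites of that level, 9 also lay within 3 kb of a start. This level averages both genotypes, so a site can fall out of the top bin through its loss in HAT1-/- cells. The lost Gabrb1 promoter site, for example, had 7.38 in HAT1+/+ cells but a mean level of 6.91. The retained share was 11.8% from 3.5 to under 4, 8.52% from 4 to under 5, 8.04% from 5 to under 6 and 9.85% from 6 to under 7. A larger share above -0.2 at strong sites was not particular to lowered neighbourhoods, since among other autosomal sites d was above -0.2 at 79.1% of those of level 7 or more and at 61.4% to 62.8% of those in the lower bins. Among sites lowered on both sides, 7 of 19 (36.8%) at level 7 or more were retained.

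A few strong sites were retained outside promoters. On chromosome 7 (58398913 to 58399534) a site 257 kb from the nearest protein-coding start had 8.74 in HAT1+/+ and 8.78 in HAT1-/- cells, with a lowered stretch on 1 side. On chromosome 1 (100180053 to 100180460) the printed site in Cntnap5b had 8.26 and 8.12, or 307 and 278 reads, while the 12 sites before it averaged -2.07 and the 12 after it -1.34. It was the only site with both a level above 7 and m below -1.2 among the sites named here as retained. The site on chromosome 5 (55355377 to 55355895) had 7.23 and 7.25, that on chromosome 12 (90166092 to 90166662) had 7.15 and 7.14, and that on chromosome 17 (93379931 to 93380483) had 6.96 and 6.90. The last of these holds the pair of AP-1 strings printed above, and the sites around it averaged -1.295 before and -1.003 after.

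The retained sites with the lowest m had modest levels. On chromosome 14 (111832950 to 111833178), 157 kb from the start of Slitrk5, a site with m of -1.66 had 3.51 and 3.81, or 11.4 and 14.03 reads. On chromosome 3 (42449631 to 42449916) the levels were 3.68 and 3.55 with m of -1.64, and on chromosome 5 (41125131 to 41125375) 3.52 and 3.69 with m of -1.62. Close to Serpinb8 on chromosome 1 (107609631 to 107609965) a site had 4.10 and 4.02. Also on chromosome 1, a site (111857827 to 111858349) had 4.87 and 4.93, lying 6.68 kb from the start of Dsel, whose promoter site was lost. A stronger site on this chromosome (122357060 to 122357280) had 6.28 and 6.16. Apart from this site and that in Cntnap5b, the 10 had levels below 5, where a few reads decide whether d passes -0.2.

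The labelled cell type was checked at promoters. For each gene the site with the highest HAT1+/+ level within 1 kb of a start was taken. Sites at 10 fibroblast genes ranked from the 79.5th (Col3a1) and 83.8th (Prrx1) to the 99.8th percentile (Vim) of all autosomal sites. The Ptprc (leukocyte) site was at the 22.1st, Epcam (epithelium) at the 57.7th, Sox2 (neural and stem cells) at the 83.0th and Cdh5 (endothelium) at the 89.6th. Col3a1 and Prrx1 thus ranked below Cdh5, and Col3a1 also below Sox2, so fibroblast and other markers overlapped in rank. At Hat1 itself the promoter site had 7.69 in HAT1+/+ and 7.90 in HAT1-/- cells, and 2 sites within the gene had 3.65 and 4.13, and 4.46 and 1.77. Accessibility does not test for the deletion. Whether the levels at Cdh5 and Sox2 promoters reflect other cells was not tested.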

How the data were processed

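ATAC-Seq reads of 3 HAT1 WT and 3 HAT1 KO pMEF lines were processed by the authors with the ENCODE pipeline, Bowtie2 alignment to mm10 and MACS2 peaks, and compared with DiffBind 2.14.0. The deposited levels are log2 values of mean normalized reads per site, over all lines or over a genotype. The consensus rule and the library normalization are not given in the sources used here. The 3 columns of the authors' own comparison (a fold change, a p-value and an FDR) were not used. Depth per line is unknown, and reads per site limit the precision.

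The moving mean, the sets and the runs were computed from the levels. Annotation was GENCODE vM21 and sequence GRCm38, whose chromosome lengths were checked against the sites. Motifs, GC and repeats (soft-masked bases) were read in the central 200 bp. CTCF was searched by its consensus core. In 7 comparisons, values of retained and lost sites were averaged per chromosome with at least 5 sites of each set. For start distance the median was taken instead. The differences were tested with two-sided exact sign tests, Benjamini-Hochberg adjusted over the 7. The threshold was 0.05. The sign test was checked on simulated normal values that were independent between sites. That check covers neither shares of sites with a motif nor likeness between neighbouring sites. The members, lists and tests were chosen with earlier results of these data known.

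Named were the 10 protein-coding genes with the highest retained promoter site, the 10 retained sites of lowest m, the 5 highest retained sites outside promoters, the 5 highest lost sites and promoters, the sites nearest the limits, and the runs with the most retained sites and with the most sites but none retained. Other genes and sites named were chosen after their values were seen. Of the 10 genes, 1 is not reported here. Alternatives varied the window, the cutoffs, the levels, the centring of d and the feature definitions. The software was scipy 1.17.1 for the tests, numpy 2.4.6 and pandas 2.3.3 for the tables, and matplotlib 3.10.9 for the plots, under Python 3.11.15.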

Additional observations from a re-analysis of the deposited data

How the results depend on the processing

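No paired analysis was possible because the deposited levels are means over lines, so no line could be left out or paired. The number of retained sites was 831 at a cutoff of -0.4 on m, 23 at -1, 143 with d above 0, 448 from level 3, 104 from level 4.5 and 99 when both sides had to be lowered. In what follows values are retained minus lost, in percentage points or, for start distance, log10 units, and the cause of a change was not tested. A window of 15 sites gave 11.05 for promoters (exact sign test, adjusted p = 0.302), 4.79 for CTCF and -0.29 for start distance (both adjusted p = 0.245), none past the threshold. A window of 51 gave 5.67 for CTCF (exact sign test, adjusted p = 0.128), and repeats passed at -2.25. At a cutoff of -0.4 repeats passed at -0.94. At a cutoff of -1 a single chromosome had enough sites and no test was possible, with -6.88 for promoters, 6.96 for GC, 7.21 for GC outside promoters, -1.25 for CTCF and 0.089 for start distance. With d above 0 the calls on CTCF (6.93) and start distance (-0.36) were lost, and with lost sites from -0.6 that on CTCF (5.62). From level 3, CTCF (3.87) was lost, AP-1 (-9.54) passed and repeats changed sign (1.23). From level 4.5, GC outside promoters (1.62) and CTCF (5.48) were lost and AP-1 (-19.1) passed. Under level 5, promoters (8.05), GC outside promoters (2.65) and start distance (-0.22) missed the threshold. With d centred on its autosomal median, promoters (10.0), GC outside promoters (2.37) and CTCF (7.58) missed it, and repeats changed sign (0.47). With both sides lowered, an alternative chosen after seeing the data, none of the 7 passed, with 14.99 for promoters, 3.45 for GC, 1.33 for GC outside promoters, 7.75 for CTCF and -0.19 for start distance on 5 or 6 chromosomes. With at least 3 sites per chromosome these were 8.82, 2.32, 1.81, 12.1 and -0.21. Outside promoters CTCF was 6.40 and not past the threshold. GC over all sites kept its call in 13 of 16 alternatives.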

Other observations

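On chromosome X, which the definition leaves out, 33 of 4263 sites had a level of 3.5 or more and m below -0.58. By the same limits 3 of them were retained and 26 lost.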
